A study of Mus musculus with 12 samples.

Results

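The secreted and cell-surface proteins that steer growing axons were followed in mouse corneal endothelium: the Slits, semaphorins, netrins, repulsive guidance molecules and ephrins as ligands, and the Robo, plexin, neuropilin, UNC5, DCC, neogenin and Eph proteins as their receptors. Genes were chosen by symbol and by the protein-coding biotype alone. This rule reads no measured value, but it was set with earlier results of these data known. The deposited tables hold 60 such genes among 15838 rows, 34 ligands and 26 receptors. The mouse genome annotation GENCODE M21 (GRCm38) lists 75 protein-coding genes whose symbols match, and the other 15 are not analysed here: *Dcc*, *Efna2*, *Epha3*, *Epha5*, *Epha6*, *Epha10*, *Ntn5*, *Plxnb3*, *Robo3*, *Robo4*, *Sema4f*, *Sema5b*, *Sema7a*, *Unc5cl* and *Unc5d*.

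Corneal endothelial cells (CEC) were taken with the Descemet membrane, the basement membrane they secrete, from C57BL/6 mice at 10 weeks of age. The 12 RNAseq libraries fall into 4 groups of 3: male and female *Slc4a11*-/- mice (KO) and male and female *Slc4a11*+/+ littermates (WT). KO mice lack part of *Slc4a11* in every cell, not in the endothelium alone, and carry no other named allele. *Slc4a11* encodes a membrane transporter that is mutated in congenital hereditary endothelial dystrophy. The methods describe both membranes of a mouse processed as a pair, whereas the sample records describe pooled membranes, so it is not settled that a library is 1 mouse. Levels used here are the authors' mean over all the libraries, given as log2 CPM, read counts scaled to a common library size. A level in CPM is this mean taken back from the log2 scale. No values per library were used, so sequencing depth is not known and no spread stands beside a level; the comparisons are descriptions without a test. The mean covers KO and WT mice of both sexes together and shows no difference between them. The effects of genotype, sex and their interaction stand in the tables only as the authors' own comparisons and are not reported here.

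Axon guidance proteins act in pairs of ligand and receptor. A cell that bears the receptor turns toward or away from cells or matrix that carry the ligand, usually by changing its actin cytoskeleton through small GTPases. The same proteins steer neural crest cells, from which the mouse corneal endothelium largely derives, as well as blood vessels and the sensory nerves that enter the cornea. Because longer transcripts yield more reads, levels of different genes were compared only after division by the total length of the annotated exons, in log2 CPM per kb. On this scale the median protein-coding gene of the tables stood at 2.19, with quartiles at 0.68 and 3.46, over 12990 genes. Ranks and percentiles below are by this length of all exons unless another is named, and several of them change with the longest transcript, the coding length or no division by length.

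Markers of corneal endothelium were among the most abundant transcripts. *Slc4a11* itself had a mean of 10.71 log2 CPM, and it is no check of the knockout here, since KO and WT libraries share the mean. Of 10 endothelial markers, 9 were in the top 25% of protein-coding genes per length, led by *Aqp1*, a water channel, at 10.97 log2 CPM per kb, *Col8a2*, a collagen of Descemet membrane, at 10.63, and *Slc4a11* at 8.39. The exception was *Car2*, a carbonic anhydrase, at -0.53 log2 CPM per kb, or 0.74 log2 CPM with no division by length. Markers of corneal stroma were also high, with 8 of 8 in the top 25%, or 7 by any other length, and between 3.47 and 9.34 log2 CPM per kb, led by *Dcn*, *Col1a1* and *Aldh3a1*. Their part in the levels below was not tested. Markers of blood vessel endothelium were between -4.75 and 3.19 log2 CPM per kb, with *Kdr* alone of 8 above the median protein-coding gene and *Tie1* at the lowest level. Epithelial markers were between -3.38 and 3.99, with *Krt5*, *Krt15* and *Perp* above the median, and leukocyte markers between -3.26 and 3.91, with *Lyz2* and *Cd74* above it by exon length and none with no division by length. The third highest leukocyte marker was *C1qa* at 2.03, and *Egfl7* and *Cdh5* followed *Kdr* among the vessel markers at 0.60 and -1.36. None of the 7 pigment cell markers with a row lay above the median, the highest being *Mitf* at 1.61, then *Pmel* and *Dct* at 0.70. None of the 7 lens markers did either, led by *Bfsp1*, *Crygs* and *Cryba1*. Of 6 nerve markers with a row, *Mbp* at 2.70 did, ahead of *Cnp* and *Nefm*, and of 2 muscle markers *Myh11* did at 4.76 and *Tnnt3* did not. In a bulk sample, fewer cells of a type and less RNA per cell cannot be told apart.

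**Figure D1:**
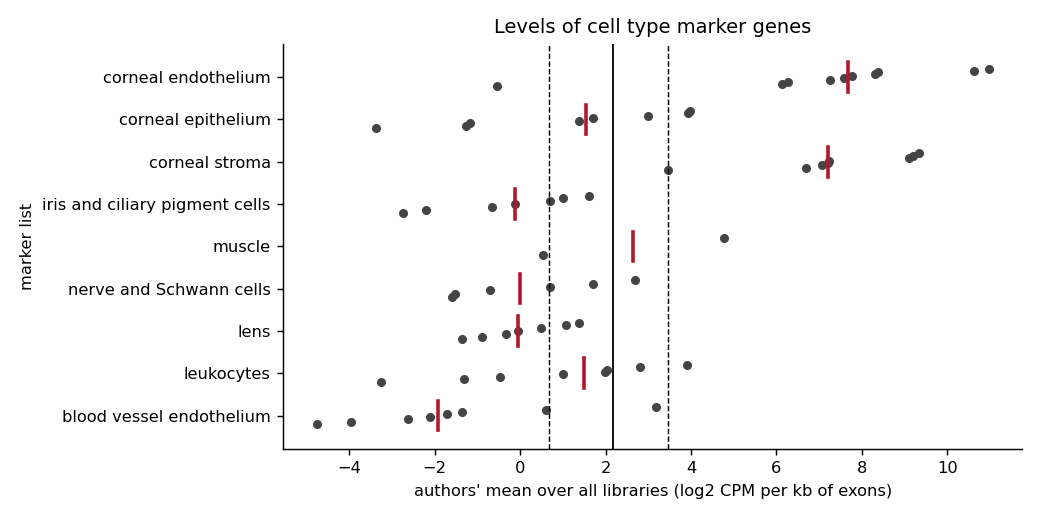
Levels of marker genes for 9 cell types, each point 1 gene, in log2 CPM per kb of exons (authors' mean over all libraries). Red bars are list medians, the solid line is the median of protein-coding genes at 2.19 and the dashed lines are the quartiles at 0.68 and 3.46. The endothelial and stromal lists lie far to the right, at medians of 7.67 and 7.22, and the vessel list lies to the left, at a median of -1.91.

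Axon guidance genes ranged from among the highest to among the lowest protein-coding genes. Of the 60 genes, 26 were above the median protein-coding gene per length, which is 43.3% against 50% of all protein-coding genes by construction. In the top 25% were 18 genes, or 30% of members, and in the bottom 25% were 24, or 40%. The highest 10% of protein-coding genes held 11 members and the lowest 10% held 10, with 12 more between the 10th and 20th percentiles, while 2 lay between the 40th and 50th. By other lengths the highest 10% held 10 (longest transcript), 7 (coding length) and 15 members (no length), and the lowest 10% held 8, 11 and 4. Above the median were 15 of 34 ligands, or 44.1%, and 11 of 26 receptors, or 42.3%. With no division by length these were 16 ligands, or 47.1%, and 16 receptors, or 61.5%, and the total of 32 members, or 53.3%, passed 50%. A mean of at least 10 CPM was reached by 38 members, or 63.3%, against 66.8% of all protein-coding genes. These counts do not cover the 15 family genes without a row.

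**Figure D2:**
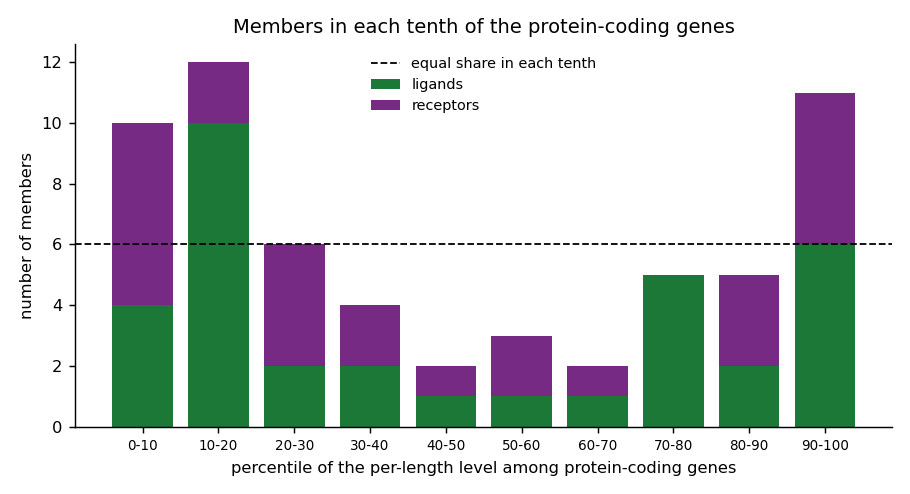
Number of ligands (green) and receptors (purple) in each 10% of the protein-coding genes ranked by level per length of all exons. The dashed line at 6 is an equal share of the 60 members. The bars are tall at both ends, with 11 members in the highest 10% and 10 in the lowest, and short in the middle.

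Few genes carried most of the summed level of the members. The matching share among all protein-coding genes was not computed, so this is not shown to be particular to the members. The 60 members summed to 711 CPM per kb, of which *Plxnb2*, *Ntn4* and *Slit2* together made up 31.9% and the 11 highest members 69.2%. Those 11 are 6 ligands, *Ntn4*, *Slit2*, *Efna5*, *Sema3d*, *Sema3f* and *Slit3*, and 5 receptors, *Plxnb2*, *Ephb4*, *Nrp1*, *Nrp2* and *Plxna2*. By exon length each was above the 91st percentile of protein-coding genes, whereas by coding length *Slit3* was at 75, *Ephb4* at 81.1, *Plxna2* at 89.4 and *Sema3f* at 89.6. The same 11 genes made up 70.6% to 75.1% of the sum by the other lengths. The 26 members above the median protein-coding gene made up 94.3% of the sum.

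**Figure D3:**
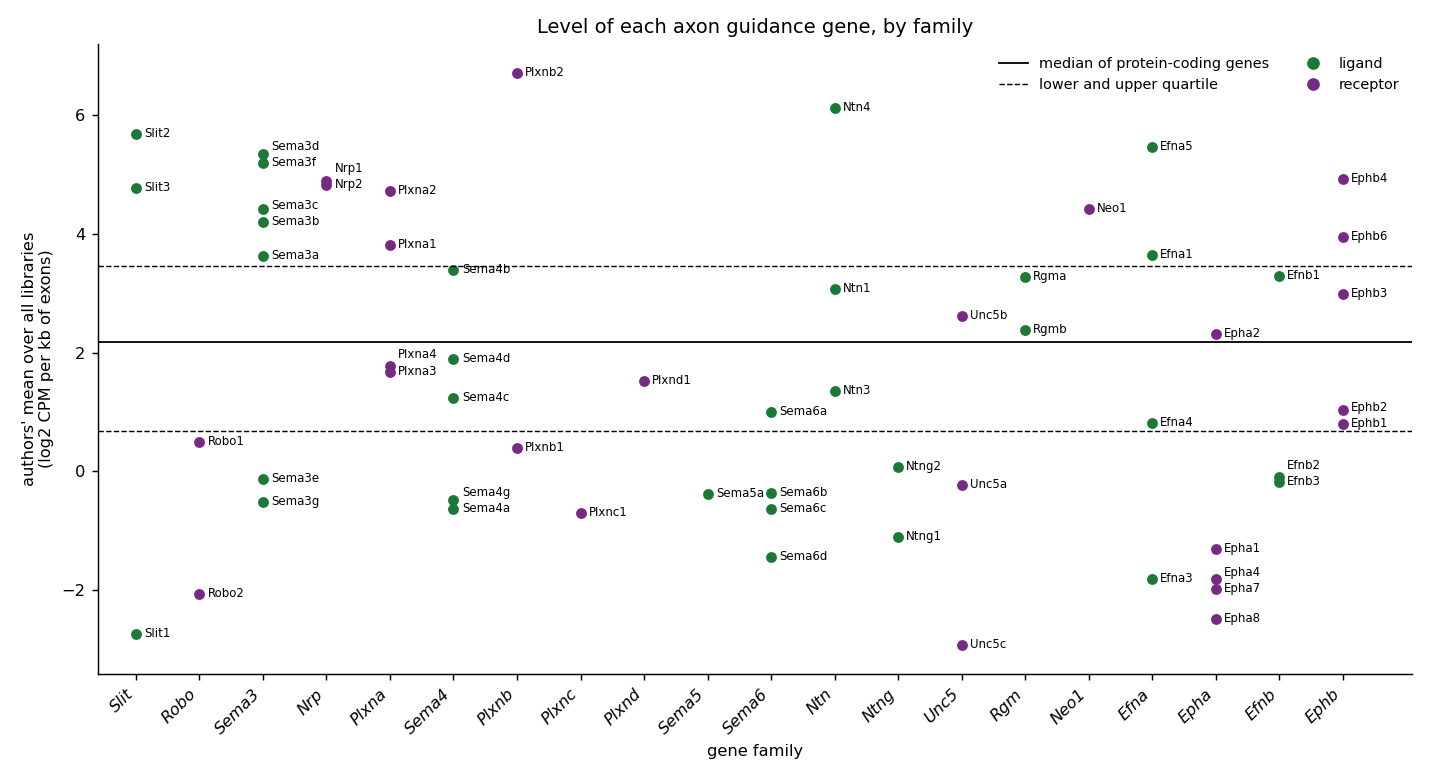
Level of each of the 60 genes, by family, in log2 CPM per kb of exons (authors' mean over all libraries), with ligands in green and receptors in purple. The solid line is the median of protein-coding genes at 2.19, and the dashed lines are the quartiles at 0.68 and 3.46. *Slit2* and *Slit3* stand above both Robo receptors, and *Plxnb2*, at 6.72, is the highest point by this length.

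Promoters of the highest receptor, the highest Slit and *Sema3d*, the highest semaphorin by exon length, are shown because they differ in the letters near the start of transcription. Each is the 250 bases before a RefSeq start on GRCm38.p6, written 5′ to 3′ on the strand of the gene, for *Plxnb2* chr15:89180789-89181038 on the minus strand, for *Slit2* chr5:47982905-47983154 and for *Sema3d* chr5:12382916-12383165, both on the plus strand. Capitals mark the GC box GGGCGG on either strand (CCGCCC on the other) and the TATA box TATAAA within 40 bases of the start.
*Plxnb2*: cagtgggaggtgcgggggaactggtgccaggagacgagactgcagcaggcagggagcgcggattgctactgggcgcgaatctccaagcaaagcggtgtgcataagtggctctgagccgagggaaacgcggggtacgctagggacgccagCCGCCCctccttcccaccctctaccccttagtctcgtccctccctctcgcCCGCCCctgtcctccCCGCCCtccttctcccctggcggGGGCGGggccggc
*Slit2*: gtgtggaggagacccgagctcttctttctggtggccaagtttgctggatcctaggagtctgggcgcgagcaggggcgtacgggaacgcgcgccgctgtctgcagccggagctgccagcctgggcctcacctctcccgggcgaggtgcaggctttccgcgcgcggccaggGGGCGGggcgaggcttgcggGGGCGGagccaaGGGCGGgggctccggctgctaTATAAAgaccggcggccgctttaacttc
*Sema3d*: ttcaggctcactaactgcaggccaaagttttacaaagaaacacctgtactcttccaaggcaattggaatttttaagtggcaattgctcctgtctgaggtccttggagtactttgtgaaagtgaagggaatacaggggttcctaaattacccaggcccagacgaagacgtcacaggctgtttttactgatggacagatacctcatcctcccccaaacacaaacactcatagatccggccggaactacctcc
*Plxnb2* holds 4 GC boxes and *Slit2* 3, with a TATAAA that begins 28 bases before the *Slit2* start. *Sema3d* holds neither motif, and 46.8% of its bases are G or C against 69.2% and 69.6% in the others. Across the 51 members with such windows, 41 held a GC box in at least 1 window, or 80.4%, against 45.8% of 17492 protein-coding genes. Those 17492 are the RefSeq protein-coding genes with such a window, with or without a row here, and had 21263 windows against 69 for the 51 members. The median share of G or C was also higher in the members, at 66% against 55.6%. The 2 sets are thus not alike, and whether this shapes the shares was not tested. TATAAA was held by 2 of the 51, *Slit2* and *Rgmb*, or 3.92%, against 3.42% of all. Members above and at or below the median level both mostly held a GC box, 18 of 21 and 23 of 30. These matches are letters in a window and do not show that a factor was bound.

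Slits are large secreted proteins that repel cells bearing Robo receptors. *Slit2* (ENSMUSG00000031558), on chromosome 5 from 47983138 to 48307733 on the plus strand, had the highest read level of all members, 10.36 log2 CPM, or 1313 CPM, and 5.69 log2 CPM per kb. *Slit3*, on chromosome 11, was at 7.38 log2 CPM and 4.78 per kb, at percentile 91.6 by exon length, 89.8 by longest transcript and 75 by coding length. *Slit1*, known mainly from the nervous system, had -0.18 log2 CPM and -2.74 per kb, at the 2.26th percentile. Of the Robo genes, *Robo1* was at 0.49 log2 CPM per kb and *Robo2* at -2.06, both in the lowest 25% by exon and coding length. By longest transcript *Robo1* was at percentile 32.0, with 1.61 log2 CPM per kb, and with no division by length at 53.0. The summed Slit level was thus 48.3 times the summed level of these 2 Robo genes per length of exons, and 46.4 to 56.7 times by any other length used. *Robo4*, the vascular member of the family, is not analysed here.

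Class 3 semaphorins are secreted and act through neuropilins, which bind them, and class A plexins, which signal. Of the 7 genes, 5 were in the top 25%: *Sema3d* at 5.35 log2 CPM per kb, *Sema3f* at 5.20, *Sema3c* at 4.42, *Sema3b* at 4.21 and *Sema3a* at 3.64. *Sema3e* and *Sema3g* were in the lowest 25%, at -0.13 and -0.52. The neuropilins were *Nrp1* at 4.90 and *Nrp2* at 4.83, against 6.32 and 5.64 by longest transcript and 6.72 and 6.91 by coding length, so their gap and order changed with the length. *Plxna2* (4.73) was in the top 25%, as was *Plxna1* (3.82) by exon length, though not by longest transcript or coding length, at percentiles 73.5 and 62.2. *Plxna4* (1.78) and *Plxna3* (1.68) were below the median, except with no division by length. The summed class 3 level was 2.26 times that of neuropilins and 2.78 times that of class A plexins. The ratio to neuropilins was 1.51 to 1.85 under other lengths, and that to class A plexins fell to 1.47 with no division by length.

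Class 4 to 6 semaphorins are anchored in the membrane and bind plexins directly. Among class 4 genes, *Sema4b* at 3.39 log2 CPM per kb was the highest, followed by *Sema4d* at 1.90, which was below the median by exon and coding length and at percentile 50.4 by longest transcript, then *Sema4c* at 1.24, *Sema4g* at -0.49 and *Sema4a* at -0.63. *Sema5a* stood at -0.39, and the class 6 genes ran from *Sema6d* at -1.45 to *Sema6a* at 0.999. The receptor side differed. *Plxnb2* (ENSMUSG00000036606), a class 4 receptor on chromosome 15 from 89155549 to 89180788 on the minus strand, was at 6.72 log2 CPM per kb and 815 CPM, above 98.5% of protein-coding genes. It ranked 1 of the 60 genes by exon length, 2 by longest transcript and with no division by length, and 4 by coding length, where it was above 95.1% of genes, and *Slit2* ranked 1 by those 3 other measures. Its relative *Plxnb1* was at 0.38, and *Plxnd1* and *Plxnc1*, the single genes of their classes, were at 1.51 and -0.70. Summed, *Plxnb1* and *Plxnb2* stood at 5.97 times the level of class 4 semaphorins, or 3.45 times per coding length.

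Netrins are laminin-related proteins of the matrix. *Ntn4* (ENSMUSG00000020019), which binds laminins in basement membranes, was the highest ligand by exon length, at 6.13 log2 CPM per kb and 261 CPM, on chromosome 10 from 93640681 to 93747207 on the plus strand. Among all members it ranked 2 by exon length, 4 by longest transcript, 5 by coding length and 7 with no division by length. *Ntn1*, the classical attractant, stood at 3.08 and *Ntn3* at 1.35. *Ntng1* and *Ntng2*, membrane-anchored netrins that do not bind the netrin receptors, were at -1.11 and 0.07. The repulsive guidance molecules *Rgma* and *Rgmb*, coreceptors of bone morphogenetic proteins that also bind neogenin, were at 3.27 and 2.37, both above the median. Their receptor *Neo1* was at 4.43 and was the single netrin receptor gene in the top 25%. Of the repulsive netrin receptors, *Unc5b* was at 2.63, above the median by exon length but not by coding length, *Unc5a* at -0.24 and *Unc5c* at -2.93. *Unc5c* was the lowest member by exon length, while *Slit1* was by longest transcript and coding length, and *Efna3* with no division by length. *Ntn1*, *Ntn3* and *Ntn4* summed to 11.3 times the UNC5 genes and 3.76 times *Neo1*, or 7.33 and 1.74 times with no division by length. For the repulsive guidance molecules against *Neo1* the order depended on the length, with a log2 ratio of -0.54 per length of exons and 0.73 per coding length.

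Ephrins and Eph receptors work between touching cells, ephrin-A proteins being held by a lipid anchor and ephrin-B proteins spanning the membrane, and both partners can signal. *Efna5* (ENSMUSG00000048915), on chromosome 17 from 62604184 to 62881317 on the minus strand, was at 5.47 log2 CPM per kb and 178 CPM, at the 95.2nd percentile. *Efna1* followed at 3.65, then *Efna4* at 0.81 and *Efna3* at -1.82. Transcripts of their receptors were low. *Epha2* was at 2.31 log2 CPM per kb, just above the median by exon length and below it by the longest transcript or coding length, and *Epha1*, *Epha4*, *Epha7* and *Epha8* were between -2.49 and -1.31. Class B showed the reverse order of ligand and receptor. *Ephb4*, at 4.94, and *Ephb6*, a member whose kinase domain is inactive, at 3.95, were in the top 25%, although *Ephb6* was at percentile 57.5 by coding length, *Ephb3* was at 2.99, and *Ephb2* and *Ephb1* were at 1.03 and 0.80. Of the ligands *Efnb1* was at 3.29, above the median, while *Efnb2*, the preferred ligand of *Ephb4*, was at -0.11 and *Efnb3* at -0.19. The summed ephrin-A level was 9.69 times that of EphA genes, and 29.4 times per coding length. The summed EphB level was 4.98 times that of ephrin-B genes, and 2.33 times per coding length.

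**Figure D4:**
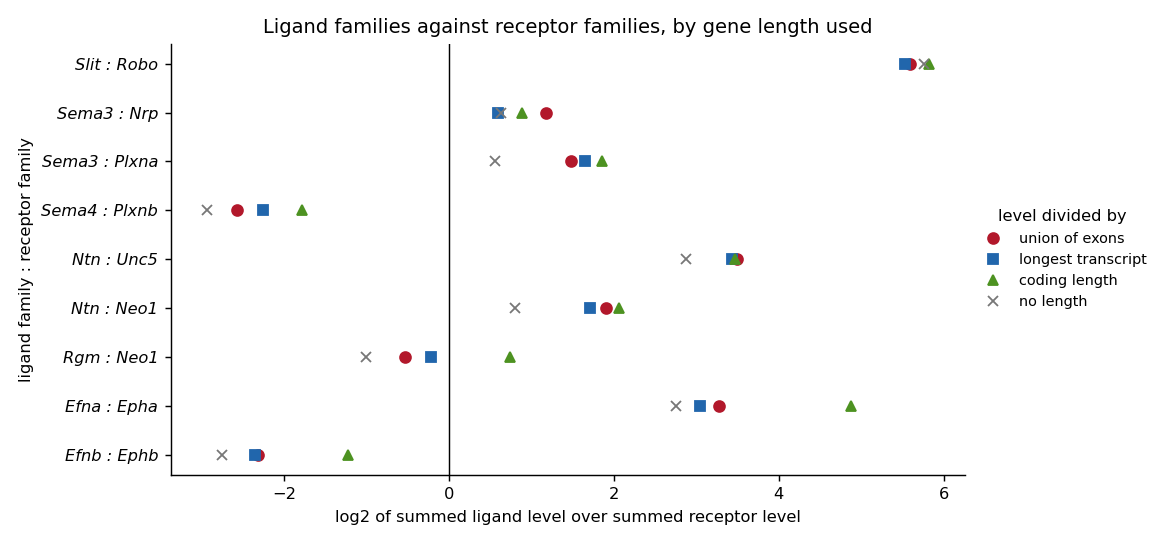
Log2 of the summed level of each ligand family over that of a receptor family, with levels divided by the length of all exons, of the longest transcript, of the coding part, or not divided. Points right of 0 have more ligand. Slits exceed Robo genes by 5.54 to 5.83 on the log2 scale, whereas *Sema4* against *Plxnb* and *Efnb* against *Ephb* lie left of 0 under each length, and *Rgm* against *Neo1* lies on either side.

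Several members that lie close together in the genome stood at distant levels, in pairs picked after their values were seen. The usual difference between neighbouring protein-coding genes was not computed, so these differences are not shown to be unusual. *Efna1*, *Efna3* and *Efna4* are consecutive protein-coding genes on chromosome 3, with gaps of 32.8 kb and 10.4 kb. *Efna1* was 5.47 higher than *Efna3* on the log2 per kb scale and *Efna4* 2.63 higher than *Efna3*. On chromosome 5, *Sema3d* and *Sema3a* are neighbours 536 kb apart and differed by 1.71, or by 0.94 per longest transcript, and *Sema3e*, 423 kb further, was 3.76 below *Sema3a*. *Sema3b* and *Sema3f* lie 72.3 kb apart on chromosome 9 and were nearer, at 4.21 and 5.20. *Ephb2* exceeded *Epha8*, 93.4 kb away on chromosome 4, by 3.53, and *Robo1* exceeded *Robo2*, its next neighbour on chromosome 16, by 2.55. *Ntn4* and *Plxnc1*, 1.04 Mb apart on chromosome 10, differed by 6.82.

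Genes for proteins that carry the signal inward or modify it were mostly above the median protein-coding gene. Of 61 partner and downstream genes 54 have a row, 39 of them above the median protein-coding gene per length and 25 in the top 25%. By the other lengths these counts were 37 to 40 and 20 to 29. Of all protein-coding genes, 50% and 25% lie there by construction. The list was chosen with earlier results of these data known, and whether its choice shapes the counts was not tested. The highest were *Dpysl3*, a collapsin response mediator of semaphorin signalling, at 7.69 log2 CPM per kb, the integrin subunit *Itgb1* at 7.19 and the receptor *Met* at 6.42. The genes that follow were chosen after their values were seen. *Dag1*, which encodes dystroglycan and binds the Slits, was at 6.28, and *Dpysl2* at 5.61. The GTPases *Cdc42*, *Rac1* and *Rhoa* were at 5.28, 5.05 and 4.57. *Arhgef12* and *Arhgef11*, exchange factors that bind class B plexins, were at 5.01 and 4.35. Of the Slit-Robo GTPase activators, *Srgap3* was at 3.50, *Srgap2* at 2.25 and *Srgap1* at -2.11. *Dpysl4*, *L1cam* and *Chl1*, known mainly from neurons, were the lowest of the list, at -3.24, -3.19 and -2.52.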

How the data were processed

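RNA from Descemet membranes with CEC was made into stranded total RNA libraries of low input and sequenced as paired-end reads. Per the study's methods and the submitters' processing notes, the authors aligned reads with HISAT2 (GRCm38/mm10). Read counts became CPM under TMM scaling, and limma-voom models followed. Versions, the counting tool, its annotation and any filter on low expression before deposit are not given in the sources used here. The authors deposited 3 tables with the same 15838 genes, of which the mean expression on the log2 CPM scale was used, equal in the 3 tables (from -3.24 to 16.04). The other numeric columns hold the authors' comparisons for genotype, sex and interaction (log2 fold change, moderated t, p-values and B) and were not used.

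Level per length was the mean log2 CPM minus log2 of the union of exons in kb (GENCODE M21, 15824 genes matched by identifier). Whether the authors counted intronic reads is not stated. Family sums add levels on the linear scale. No test was made, since no values per library were used. Members and gene lists were chosen with earlier results of these data known. All members are accounted for, and those above the median protein-coding gene, with the highest and lowest of each family and the 3 highest of each gene list, are named. Promoter windows come from RefSeq (GRCm38.p6) for 51 of the 60 members. Alternatives were other lengths, other reference genes and other thresholds. Ranking and length calculations were tested on simulated data. Python 3.11.15, pandas 2.3.3, numpy 2.4.6 and matplotlib 3.10.9 were used.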

Additional observations from a re-analysis of the deposited data

How the results depend on the processing

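Leaving out 1 library at a time was not run, because only a mean over all the libraries was used, and the depth behind each level is unknown. No paired analysis was possible because the result comes from no test. Counts of members above the median protein-coding gene (26) or in the top 25% (18) stayed within 1.5 times under each alternative: 24 to 32 and 16 to 21 over the other lengths, all rows as reference and a mean of at least 1 CPM, but the 32 with no division by length lay on the other side of 50%. Receptors above the median went from 11 to between 9 and 16, and ligands from 15 to between 15 and 16. The count in the highest 10% (11) fell to 7 with the coding length. That in the lowest 10% (10) fell to 4 with no division by length. The median total exon length was 6928.5 bases for members (5783 for ligands, 8201.5 for receptors) against 4611 for protein-coding genes. Whether this length underlies the shifts was not tested. Of the 10 highest members, 9 remained among the 10 highest with the longest transcript, 8 with the coding length and 8 with no length. At a threshold of 1 CPM, 57 of the 60 members passed, and so did 12380 of the 12990 protein-coding genes, a similar share. Family ratios, the counts per 10% and the ranks of single members were given other lengths after the data had been seen. Setting each family ratio under each other length against its value per length of exons gave 27 comparisons. Of these comparisons, 20 moved by 1.5 times or less and 6 by more, and 1 changed direction. Only *Slit* against *Robo* and *Sema3* against *Nrp* stayed within 1.5 times under every length. Every other family ratio moved by more, or changed direction, under at least 1 length. The change of direction was *Rgm* against *Neo1*, with a log2 ratio of 0.73 per coding length in place of -0.54. The cause was not tested.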

Other observations

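One further row has a symbol that begins like a plexin but is no protein-coding gene: *Plxna4os2*, a long non-coding RNA gene, had a mean of -0.97 log2 CPM, or 0.51 CPM.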
